A study of Mus musculus with 10 samples.

Results

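The 37 genes described here encode the proteins of the myelin sheath and of the mature oligodendrocyte, the glial cell that wraps axons of the brain and spinal cord. They were taken by gene symbol from the deposited count table, where all 37 were found among 54532 genes (22046 of them protein-coding), and the list was drawn up with earlier results of these data known. Myelin is a spiral of oligodendrocyte membrane, rich in galactolipids and cholesterol, that insulates the axon and speeds the nerve impulse. Its layers are packed together in compact myelin by basic proteins and proteolipids, keep cytoplasm in channels between them, and end beside each node of Ranvier in paranodal loops that are fixed to the axon by adhesion molecules. The genes were ordered by these roles: compact myelin, non-compact myelin and the myelin surface, lipid enzymes, nodal and paranodal proteins, and then cytoskeletal, metabolic, receptor and other oligodendrocyte proteins.

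RNA of brain tissue from 10 Slc20a2-HO mice was sequenced, to ask what FTY720 changes in the brain of a mouse model of brain calcification. Slc20a2 encodes a phosphate transporter, and all 10 mice were homozygous for its knockout, so the placebo group is a knockout group as well and no wild type library was analysed here. The knockout is a tm1a allele obtained from crosses of heterozygotes. The 6 mice of the FTY720 group received 0.5 mg/kg FTY720 in dimethyl sulfoxide by intraperitoneal injection, and the 4 mice of the placebo group received dimethyl sulfoxide alone. FTY720 (fingolimod) acts on the receptors for sphingosine-1-phosphate and holds lymphocytes in lymph nodes. Injections began at the age of 1.5 months and went on for 12 weeks, after which each mouse was perfused and RNA was taken from part of the brain, the rest being fixed. The labels give no sex and no dissection plane.

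Between 14772745 and 18303981 fragments were counted per mouse, with a median of 16653895. Each mouse's name holds a digit, 1 in F1-622, F1-624, F1-918 and P1-623 and 3 in F3-609, F3-612, F3-908, P3-612, P3-904 and P3-907, and the sources used here do not say what it stands for. The libraries stood apart by this digit: the summed level of 10 cerebellar marker genes was 134 to 149.5 CPM (counts scaled to library size) in the 4 digit-1 mice and 1382 to 1504 CPM in the 6 with the digit 3. The hindbrain genes Hoxb5, Hoxa5, Hoxb3 and Hoxb6 were at 0 in all 4 digit-1 mice. For this reason the treatment groups were also compared among the digit-3 mice alone, where each group holds 3. Whole-gene counts of the targeted gene Slc20a2 were 89 to 294 per mouse, with a log2 fold change of -0.24 between the groups (adjusted p = 0.99992, edgeR).

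Promoter sequence is shown for 4 of the members that were lower together in the comparison of treatments below, with at least 1 gene each from compact myelin (Pllp), the non-compact sheath (Mag and Cnp) and the lipid enzymes (Gal3st1). Each window comes from RefSeq (GRCm38.p6), runs 5′ to 3′ on the strand of the gene and covers 250 bases before the start site to 50 bases after it. The windows lie at chr7:30914814-30915113 on the minus strand for Mag, chr11:100574689-100574988 on the plus strand for Cnp, chr11:3983386-3983685 on the plus strand for Gal3st1 and chr8:94696193-94696492 on the minus strand for Pllp. Where a gene had several windows, the one nearest the gene start of the count table was taken. Capitals mark ACAAAG, a core of SOX binding motifs, and CAGGTG, an E-box, on either strand.
Mag: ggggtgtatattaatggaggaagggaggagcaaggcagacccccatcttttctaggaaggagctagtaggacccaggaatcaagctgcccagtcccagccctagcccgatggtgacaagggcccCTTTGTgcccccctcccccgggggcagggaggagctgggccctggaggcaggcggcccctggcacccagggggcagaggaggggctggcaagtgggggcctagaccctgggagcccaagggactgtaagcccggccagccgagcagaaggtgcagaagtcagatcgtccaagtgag
Cnp: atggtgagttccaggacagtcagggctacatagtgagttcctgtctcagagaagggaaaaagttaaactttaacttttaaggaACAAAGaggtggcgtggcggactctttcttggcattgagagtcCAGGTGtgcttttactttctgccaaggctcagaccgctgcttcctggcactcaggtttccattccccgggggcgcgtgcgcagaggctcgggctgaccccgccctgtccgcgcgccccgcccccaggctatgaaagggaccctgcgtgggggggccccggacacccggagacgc
Gal3st1: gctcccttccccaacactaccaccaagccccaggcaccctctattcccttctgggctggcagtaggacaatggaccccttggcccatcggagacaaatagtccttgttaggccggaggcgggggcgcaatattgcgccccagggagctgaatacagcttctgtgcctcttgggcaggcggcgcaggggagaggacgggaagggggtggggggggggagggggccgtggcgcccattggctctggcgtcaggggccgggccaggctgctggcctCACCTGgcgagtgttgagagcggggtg
Pllp: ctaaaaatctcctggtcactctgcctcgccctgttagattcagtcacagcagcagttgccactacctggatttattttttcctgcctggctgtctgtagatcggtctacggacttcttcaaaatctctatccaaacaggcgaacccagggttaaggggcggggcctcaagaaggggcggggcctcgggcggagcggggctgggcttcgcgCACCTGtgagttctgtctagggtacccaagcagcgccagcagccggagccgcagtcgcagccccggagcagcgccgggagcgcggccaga

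Counted from the start site to the first marked base, CTTTGT (the reverse complement of ACAAAG) begins at -126 in Mag, ACAAAG at -167 and CAGGTG at -124 in Cnp, and CACCTG (the reverse complement of CAGGTG) at 24 in Gal3st1 and at -40 in Pllp. Windows were found for 27 of the 37 members, 39 windows in all, and 13 strings were searched on both strands in these and in all 32851 windows. ACAAAG was in 28.2% of the member windows and 18.7% of all windows. CAGGTG was in 23.1% and 20.2%, CATCTG in 33.3% and 17.2%, CAGCTG in 20.5% and 16.3%, and ACAATG in 20.5% and 12.6%. CCAAT was in 46.2% and 37.4%, GGGCGG in 38.5% and 35.7%, CCCGCC in 43.6% and 35.3%, TATAAA in 2.56% and 13.6%, AGGTCA in 7.69% and 16.3%, and TGACGTCA in 0 member windows and 1.79%. AACAAAG, in 7.69% and 5.85%, and ACAAAGG, in 10.3% and 5.88%, both contain ACAAAG and overlap its matches. The median GC content was 59.3% in the member windows and 52.7% in all. These matches describe the letters only, and no binding was measured.

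Per gene length, in the deposited FPKM (fragments scaled by gene length and library size), the mean levels of the members ran from 2.21 to 332 FPKM. Mbp, which encodes myelin basic protein of compact myelin, had the highest mean level, 332 ± 46.7 FPKM (SD, n = 10). It was followed by Mobp, another basic protein, at 135 ± 8.34 FPKM, and by Plekhb1 at 112 ± 9.26 FPKM. Mbp lay above Mobp and Plekhb1 in all 10 mice, while the ranges of the latter pair overlapped. Apod, a lipid carrier (98.7 ± 21.7 FPKM), Cnp, an enzyme of non-compact myelin (93.8 ± 15.4 FPKM), Car2, a carbonic anhydrase (93.2 ± 11.3 FPKM), and Mal, a raft proteolipid (86.7 ± 4.52 FPKM), came next, and their ranges over the 10 mice overlapped. The lipid enzymes were lower, with Fa2h at 16.6 ± 2.45, Ugt8a at 16.3 ± 5.28, Gal3st1 at 7.58 ± 1.501 and Aspa at 4.58 ± 1.01 FPKM. Pllp (4.18 ± 1.04 FPKM) and Ninj2 (2.21 ± 0.792 FPKM) had the lowest means.

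**Figure D1:**
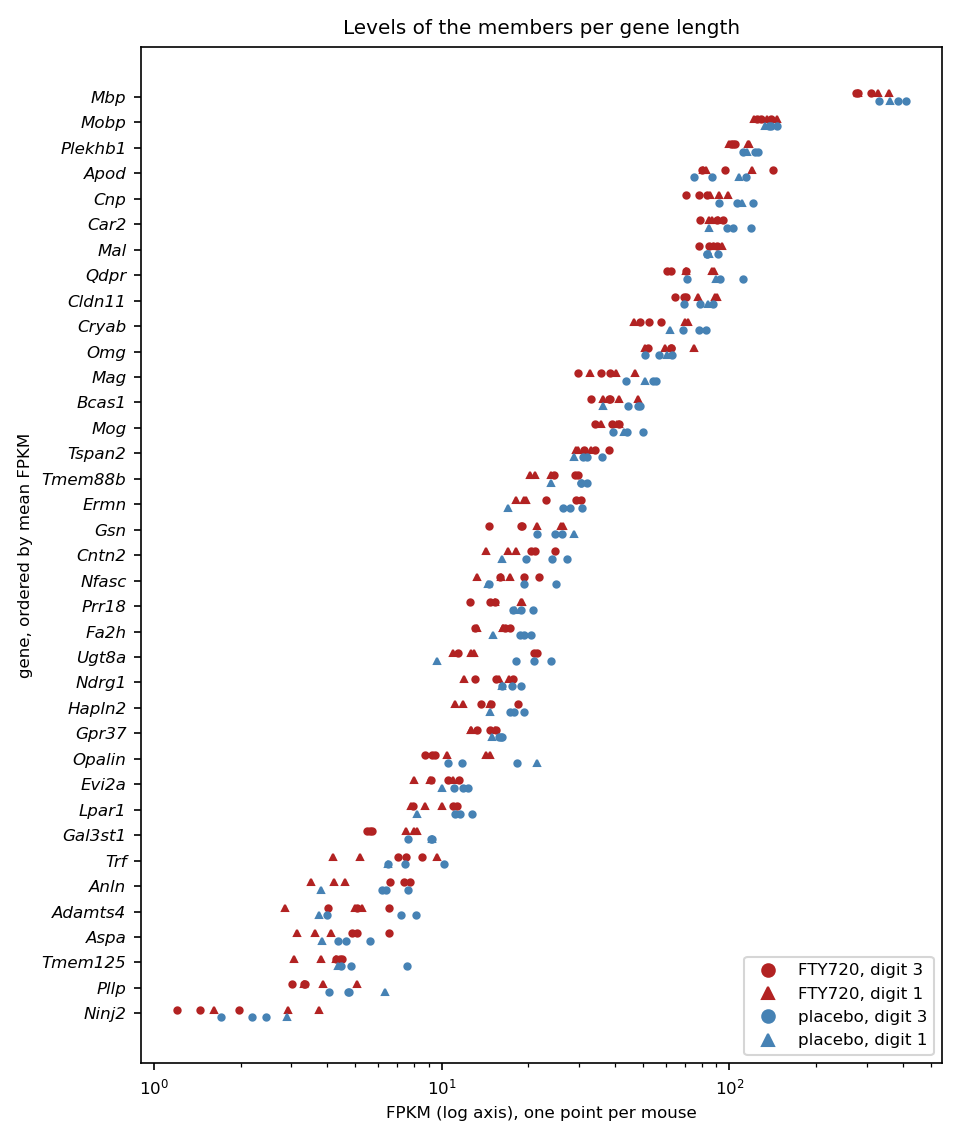
Level of each of the 37 genes in FPKM (log axis), 1 point per mouse, ordered by the mean over the 10 mice, with FTY720 in red, placebo in blue, circles for the digit 3 and triangles for the digit 1. Mbp is the highest at a mean of 332 FPKM and Ninj2 the lowest at 2.21 FPKM.

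With FTY720, 9 of the 37 genes were lower at an unadjusted p under 0.05, the criterion of the study, and 0 were higher: Mbp, Pllp, Mag, Cnp, Fa2h, Gal3st1, Cryab, Qdpr and Tmem125. That is 24.3% of the members, where 2.61% of the 14784 protein-coding genes tested were past that p in either direction, 1.47% lower and 1.14% higher. The digit is not balanced between the groups, and with it as a covariate 10 members (27.0%) were past that p, all lower, beside 14.1% of the protein-coding genes, so the margin over the background was smaller. The 9 are spread over compact myelin (2 of 6), non-compact myelin (2 of 6), lipid enzymes (2 of 4), metabolic and stress proteins (2 of 6) and other oligodendrocyte proteins (1 of 5), with 0 of 3 nodal and paranodal genes, 0 of 4 cytoskeletal genes and 0 of 3 receptor and protease genes. The differences were small, between -0.26 and -0.46 on the log2 scale, and with Benjamini-Hochberg adjustment over all 17665 genes tested 0 members passed, the smallest adjusted p being 0.99992 (the quasi-likelihood test of edgeR). Of the 37, 33 had a fold change below 0 and 4 above it, with a median of -0.21, beside a median of 0.00 and 48.9% below 0 over the protein-coding genes. For all 37 the groups overlapped, which was also so for all but 0.839% of the protein-coding genes.

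Summed over the 37 genes, the level was 8968 CPM in P3-612, 8678 in P3-907, 7949.8 in P1-623 and 7905 in P3-904, and 7012 to 7962 CPM in the FTY720 mice. Mbp makes up the largest part of the sum, and F1-918 lay just above P1-623 and P3-904. P3-612 had the highest level of all 10 mice in 11 genes, P3-907 in 8 and P3-904 in 7, while the lowest level was in F3-609 for 9 genes and in F1-624 for 8. Without P3-612, 3 members (all lower) were past the unadjusted p of 0.05, without P3-907 there were 4, and without F3-609, F3-612 or F3-908 there were 5 each. In bulk tissue, fewer oligodendrocytes and less RNA per oligodendrocyte cannot be told apart.

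**Figure D2:**
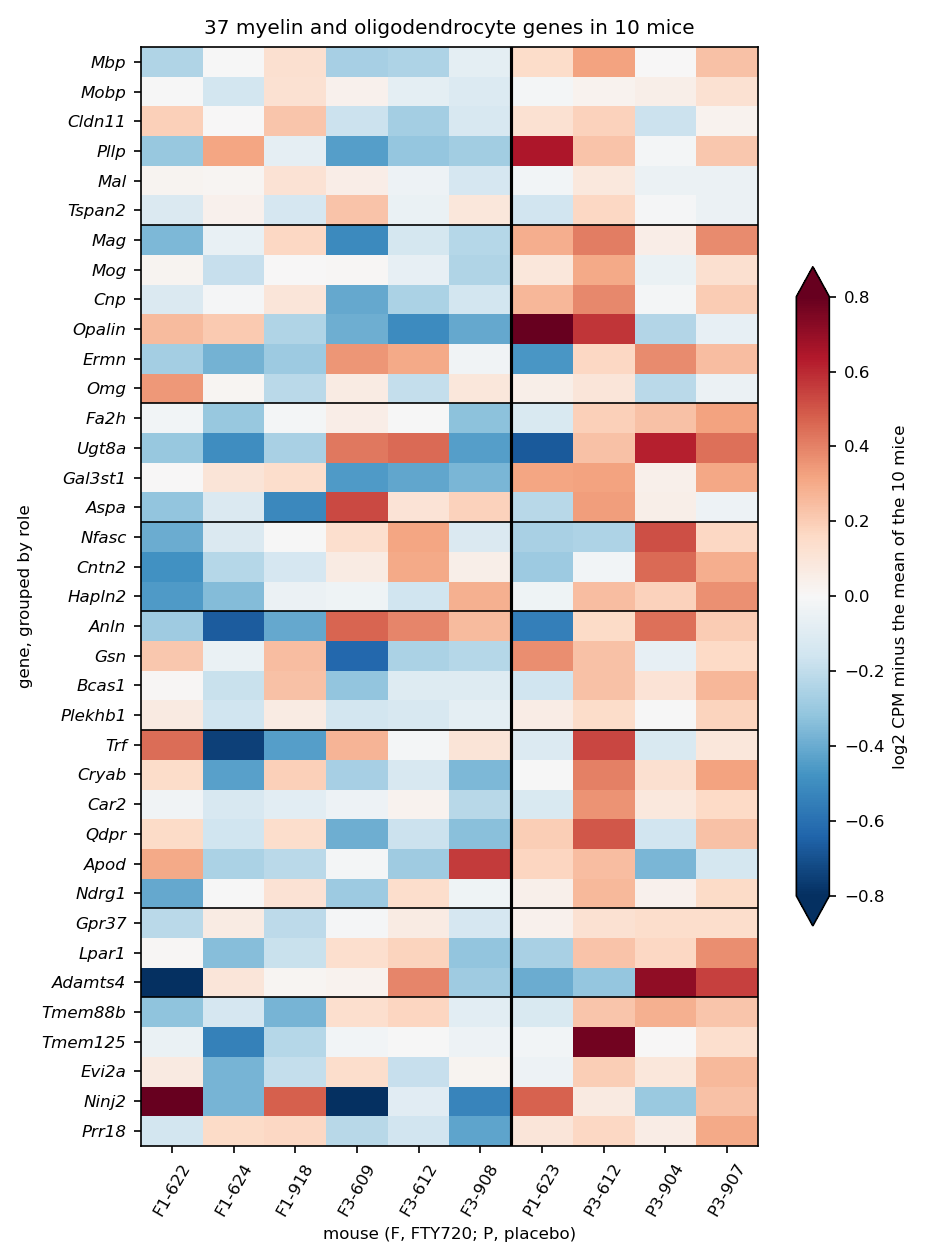
Level of each of the 37 genes in each of the 10 mice, as log2 CPM minus the gene's mean over the mice (red higher, blue lower), with genes grouped by role by horizontal lines and FTY720 to the left of the vertical line. P3-612 and P3-907 are above the mean for 34 and 31 genes, and the other mice for 9 to 23.

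Of the 6 genes of compact myelin and its tight junctions, Mbp and Pllp were past the unadjusted p and Mobp, Cldn11, Mal and Tspan2 were not. Mbp, whose protein glues the cytoplasmic faces of the membrane together, was at 3089.8 CPM in P1-623, 3488 in P3-612, 2795 in P3-904 and 3286 in P3-907, and ranged from 2322 to 3048 CPM with a median of 2505 in the 6 FTY720 mice. All placebo mice lay above all FTY720 mice but F1-918, which lay above P3-904. The means were 3165 ± 295 CPM (SD, n = 4) and 2586 ± 292 CPM (SD, n = 6), and the log2 fold change was -0.29 (SE 0.11, unadjusted p = 0.0187 by edgeR, exact permutation p = 0.0238). Pllp (ENSMUSG00000031775, chromosome 8, 94674894 to 94696278, minus strand), which encodes the membrane protein plasmolipin, was at 13.4 CPM in P1-623, 10.04 in P3-612, 8.49 in P3-904 and 9.97 in P3-907, and ranged from 6.32 to 10.7 CPM with a median of 6.9998 in the 6 FTY720 mice. F1-624 lay above every placebo mouse but P1-623, which was the highest. Its log2 fold change was -0.45 (SE 0.18, unadjusted p = 0.0286 by edgeR, exact permutation p = 0.0476). Mobp (-0.07), Cldn11 (-0.06), the claudin of myelin tight junctions, Mal (0.02) and Tspan2 (0.02), a tetraspanin, had log2 fold changes within 1 standard error of 0 and unadjusted p-values of 0.421, 0.622, 0.851 and 0.847.

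Among the 6 genes of non-compact myelin and the myelin surface, Mag and Cnp were lower. Mag (ENSMUSG00000036634, chromosome 7, 30899176 to 30914873, minus strand) encodes the myelin-associated glycoprotein of the innermost membrane that faces the axon. Its level, in CPM scaled by TMM, was 211 CPM in P1-623, 229 in P3-612, 179 in P3-904 and 224 in P3-907, and ranged from 121 to 194 CPM with a median of 152 in the 6 FTY720 mice. F1-918 lay above P3-904, and every other FTY720 mouse lay below all placebo mice. The means were 211 ± 22.4 CPM (SD, n = 4) and 153 ± 25.3 CPM (SD, n = 6), and the log2 fold change was -0.46 (SE 0.13, unadjusted p = 0.00455 by edgeR, exact permutation p = 0.019), the smallest unadjusted p of the 37. Cnp (ENSMUSG00000006782, chromosome 11, 100574904 to 100591729, plus strand) encodes a phosphodiesterase that maintains the cytoplasmic channels. Its level was 409.8 CPM in P1-623, 444 in P3-612, 337 in P3-904 and 392 in P3-907, and ranged from 257 to 364 CPM with a median of 311 in the 6 FTY720 mice. F1-624 and F1-918 lay above P3-904 and below the other placebo mice. For Cnp the log2 fold change was -0.35 (SE 0.12, unadjusted p = 0.012 by edgeR, exact permutation p = 0.019). Cnp shares exon bases with Dnajc7 on the other strand, as Pllp does with Gm45767 and Qdpr with Gm42413, and the strand setting of the counting is not given in the sources used here.

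Of the other 4, Opalin, a surface glycoprotein, had the largest difference of all members, -0.48 (SE 0.22), with an unadjusted p of 0.0526. Its placebo levels were scattered, with 40.03 and 34.04 CPM in P1-623 and P3-612 and 19.5 and 21.9 CPM in P3-904 and P3-907, the latter pair inside the FTY720 range of 16.2 to 27.3 CPM. Mog, the outermost surface glycoprotein, had a log2 fold change of -0.19 (unadjusted p = 0.0764 by edgeR, exact permutation p = 0.0476), Ermn, which binds actin in the outer loops, -0.14 (0.483 and 0.552) and Omg, an inhibitor of neurite outgrowth, 0.06 (0.661 and 0.7). Omg lies within Nf1 on the other strand.

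Of the 4 lipid enzymes, Fa2h and Gal3st1 were lower. Fa2h (ENSMUSG00000033579, chromosome 8, 111345135 to 111393824, minus strand), which adds the 2-hydroxyl group of myelin galactolipids, was at 46.1 CPM in P1-623, 57.03 in P3-612, 58.8 in P3-904 and 62.6 in P3-907, and ranged from 39.8 to 52.1 CPM with a median of 49.4 in the 6 FTY720 mice. The 3 digit-3 placebo mice lay above all FTY720 mice, and P1-623 lay within their range. Its log2 fold change was -0.26 (SE 0.12, unadjusted p = 0.0489 by edgeR, exact permutation p = 0.0571). Fa2h was past the threshold under 3 of 19 alternative runs, at -0.34 to -0.20. Gal3st1 (ENSMUSG00000049721, chromosome 11, 3983636 to 3999326, plus strand) sulfates galactosylceramide to sulfatide. It was at 19.1 CPM in P1-623, 19.2 in P3-612, 15.8 in P3-904 and 19.02 in P3-907, and ranged from 11.2 to 16.9 CPM with a median of 13.6 in the 6 FTY720 mice. P3-904 stood below the other placebo mice, whose levels lay close together and above all FTY720 mice. For Gal3st1 the log2 fold change was -0.39 (SE 0.15, unadjusted p = 0.0233 by edgeR, exact permutation p = 0.0333). Ugt8a, which makes galactosylceramide, the substrate of Gal3st1, had a log2 fold change of -0.28 with a standard error of 0.26 (unadjusted p = 0.298 by edgeR, exact permutation p = 0.448), and Aspa, which splits N-acetylaspartate into acetate for lipid synthesis, -0.02 (0.19, p-values of 0.906 and 0.814). Both also differed between the digits, as given below.

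None of the 3 genes of the node, paranode and juxtaparanode was past the unadjusted p. Nfasc, whose glial form holds the paranodal loops to the axon and whose neuronal form sits at the node, was at 208 to 356 CPM with placebo and 189 to 309.8 CPM with FTY720, or -0.09 on the log2 scale (SE 0.17, unadjusted p = 0.597 by edgeR, exact permutation p = 0.719). All FTY720 mice but F1-622 lay inside the placebo range. Cntn2, an adhesion molecule of the juxtaparanode, had -0.19 (SE 0.17, unadjusted p = 0.292 by edgeR, exact permutation p = 0.357). Hapln2, a link protein of the nodal matrix, came nearest to the threshold with -0.30 (SE 0.14, unadjusted p = 0.0562 by edgeR, exact permutation p = 0.0714). Whole-gene counts do not divide the glial and neuronal forms of Nfasc. A range of 2 standard errors around each of these 3 differences holds the value of Mbp, and a difference between them and compact myelin was not tested.

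Cryab and Qdpr were lower among the 6 iron, stress, metabolic and carrier genes. Cryab (ENSMUSG00000032060, chromosome 9, 50751325 to 50756636, plus strand), a small heat shock protein abundant in oligodendrocytes, was at 93.8 CPM in P1-623, 124 in P3-612, 103 in P3-904 and 118 in P3-907, and ranged from 69.7 to 107 CPM with a median of 82.004 in the 6 FTY720 mice. F1-622 and F1-918 lay above P1-623 and P3-904, and the other FTY720 mice lay below all placebo mice. Its log2 fold change was -0.34 (SE 0.14, unadjusted p = 0.0336 by edgeR, exact permutation p = 0.0619). It shares exon bases with Hspb2 on the other strand, which had 1 to 15 counts per mouse. Qdpr (ENSMUSG00000015806, chromosome 5, 45434021 to 45450236, minus strand), which regenerates tetrahydrobiopterin, was at 164 CPM in P1-623, 202 in P3-612, 128 in P3-904 and 168 in P3-907, and ranged from 109 to 159 CPM with a median of 127 in the 6 FTY720 mice. For Qdpr the log2 fold change was -0.33 (SE 0.15, unadjusted p = 0.0478 by edgeR, exact permutation p = 0.0476), with F1-622 and F1-918 above P3-904. Under 8 of 19 alternative runs, at -0.43 to -0.21 over all 19, Qdpr was past the threshold. Car2 (-0.21), Ndrg1 (-0.19), Trf, the iron carrier transferrin (-0.13), and Apod (0.05) were not past it, with unadjusted p-values of 0.0732, 0.147, 0.558 and 0.784 by edgeR. Car2, with an exact permutation p of 0.0476, came nearest. Trf shares exon bases on its own strand with Gm20425, which was at 0 in all mice.

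Of the 5 other oligodendrocyte-enriched genes, Tmem125 alone was past the threshold. Tmem125 (ENSMUSG00000050854, chromosome 4, 118540941 to 118544044, minus strand), which encodes a membrane protein, was at 10.4 CPM in P1-623, 18.001 in P3-612, 10.6 in P3-904 and 11.5 in P3-907, and ranged from 7.25 to 10.5 CPM with a median of 10.2 in the 6 FTY720 mice. Its log2 fold change was -0.40 (SE 0.18, unadjusted p = 0.0476 by edgeR, exact permutation p = 0.0143), and without P3-612 it was -0.17 and not past the threshold. Tmem88b (-0.25), Evi2a (-0.21), Prr18 (-0.25) and Ninj2 (-0.11) had unadjusted p-values of 0.0719 to 0.733 by edgeR. The 4 genes of the cytoskeleton and of early myelination, Anln (-0.09), Gsn (-0.27), Bcas1 (-0.19) and Plekhb1 (-0.16), and the 3 receptor and protease genes, Gpr37 (-0.18), Lpar1 (-0.22) and Adamts4 (-0.27), had unadjusted p-values of 0.0864 to 0.729 by edgeR. The exact permutation p was 0.0381 for Gpr37 and 0.0429 for Plekhb1, and 0.152 or more for the other 5. All 7 had a fold change below 0.

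**Figure D3:**
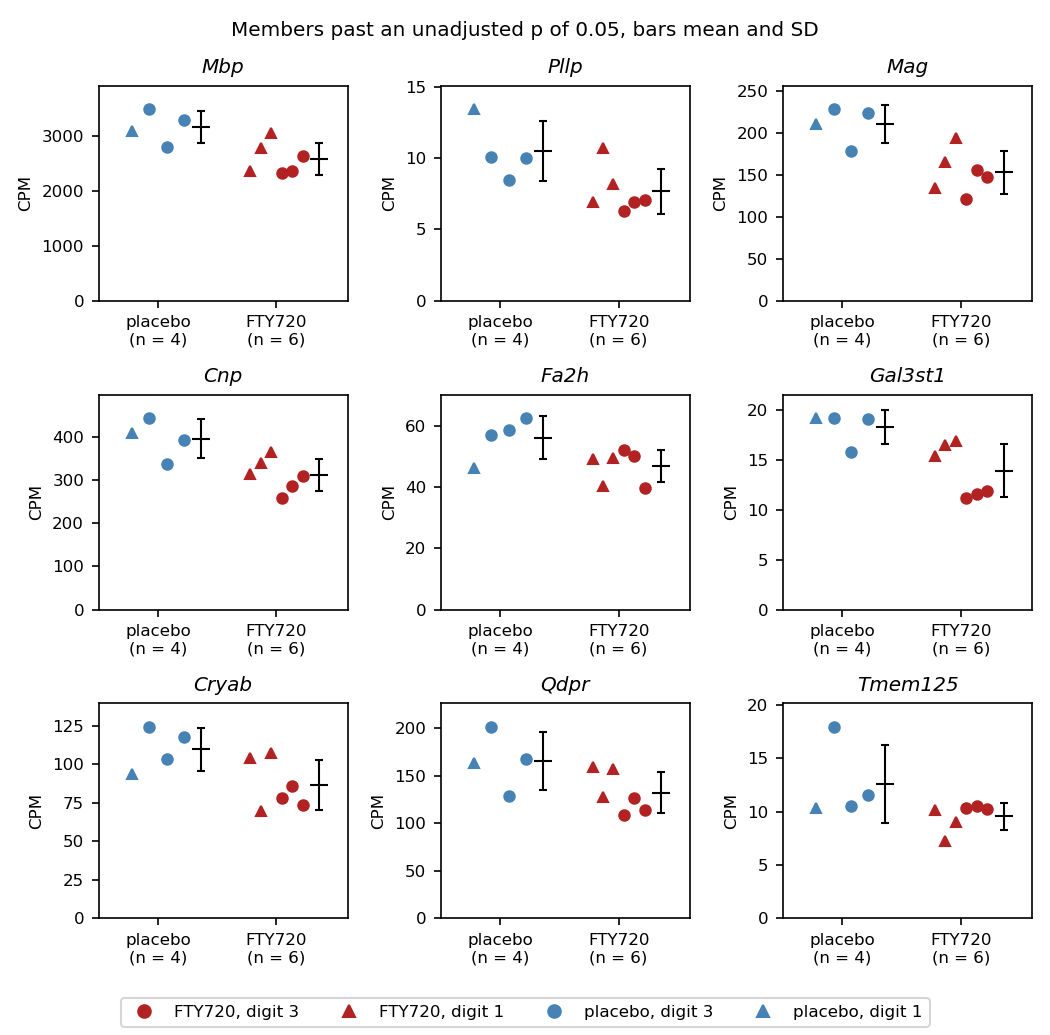
CPM of the 9 genes past an unadjusted p of 0.05, 1 point per mouse (circles digit 3, triangles digit 1), with the mean and SD of the 4 placebo (blue) and 6 FTY720 (red) mice. The groups overlap in every panel, and in Mag and Mbp 1 FTY720 mouse (F1-918) reaches into the placebo range.

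Among the digit-3 mice alone, where each group holds 3, 12 of the 37 genes were lower at an unadjusted p under 0.05 and 0 were higher, where 7.95% of the 14734 protein-coding genes tested were past it, 5.0% lower and 2.96% higher. They were Mbp, Pllp, Mag, Cnp, Fa2h, Gal3st1, Cryab and Qdpr again, and Opalin, Gsn, Bcas1 and Prr18, while Tmem125 (-0.36, unadjusted p = 0.124) was not past it. These mice are also in the first comparison, so the second is no separate evidence. With adjustment over all 17656 genes 0 members passed, the smallest adjusted p being 0.654 (edgeR quasi-likelihood test, Benjamini-Hochberg adjusted). Without a filter on low counts Mag had an adjusted p of 0.028 there, and no other of the named members passed under any alternative run. Of the 37, 32 had a fold change below 0, with a median of -0.22, beside -0.01 over the protein-coding genes. In 17 genes all 3 FTY720 mice lay below all 3 placebo mice and in 0 above them, beside 6.9% and 6.8% of the protein-coding genes. An exact permutation test of 3 against 3 cannot give a two-sided p under 0.10.

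The largest difference there was in the sulfatide enzyme Gal3st1, at 11.2, 11.5 and 11.9 CPM in F3-609, F3-612 and F3-908 and 19.2, 15.8 and 19.02 CPM in P3-612, P3-904 and P3-907, a log2 fold change of -0.63 (SE 0.14, unadjusted p = 0.00143). The FTY720 values lay close together and below the lowest placebo value. Mag was at 121, 157 and 147 CPM and 229, 179 and 224 CPM in the same order of mice, a log2 fold change of -0.57 (SE 0.14, unadjusted p = 0.00296). Opalin was at 17.5, 16.2 and 17.3 CPM and 34.04, 19.5 and 21.9 CPM, a log2 fold change of -0.56 (SE 0.21, unadjusted p = 0.0244). Its groups did not overlap, but P3-612 alone was far above the other placebo mice. With 1 mouse left out the Opalin difference ran from -0.72 to -0.27, and it stayed past the threshold in 2 of 6 such runs. Cryab was at 78.1, 85.9 and 73.5 CPM and 124, 103 and 118 CPM, a log2 fold change of -0.53 (SE 0.12, unadjusted p = 0.00146). Gsn, the actin-severing gelsolin, was at 46.03, 59.9 and 60.9 CPM and 83.8, 68.1 and 79.7 CPM, a log2 fold change of -0.47 (SE 0.14, unadjusted p = 0.00923). Bcas1, which marks early myelinating oligodendrocytes, was at 125, 145 and 146 CPM and 184, 168 and 188 CPM, a log2 fold change of -0.37 (SE 0.11, unadjusted p = 0.00768). In each of these the groups were apart in the 6 mice. Mbp had -0.38, Cnp -0.46, Pllp -0.48, Fa2h -0.32, Qdpr -0.51 and Prr18 -0.43 on the log2 scale.

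By role, the genes past the threshold among these 6 mice were 2 of 6 of compact myelin, 3 of 6 of non-compact myelin, 2 of 4 lipid enzymes, 0 of 3 of the node and paranode, 2 of 4 of the cytoskeleton, 2 of 6 metabolic genes, 0 of 3 receptors and proteases and 1 of 5 others. Nfasc (-0.05), Cntn2 (-0.10) and Hapln2 (-0.22) had overlapping groups, and so had Mobp (-0.11), Cldn11 (-0.21), Mal (-0.03), Tspan2 (0.06), Ugt8a (-0.23) and Aspa (0.17). Apod (0.20) had the highest fold change of the 37, from 207 to 371 CPM with FTY720 and 196 to 299 CPM with placebo. Without F3-612, 10 members were past the threshold and all of them lower.

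**Figure D4:**
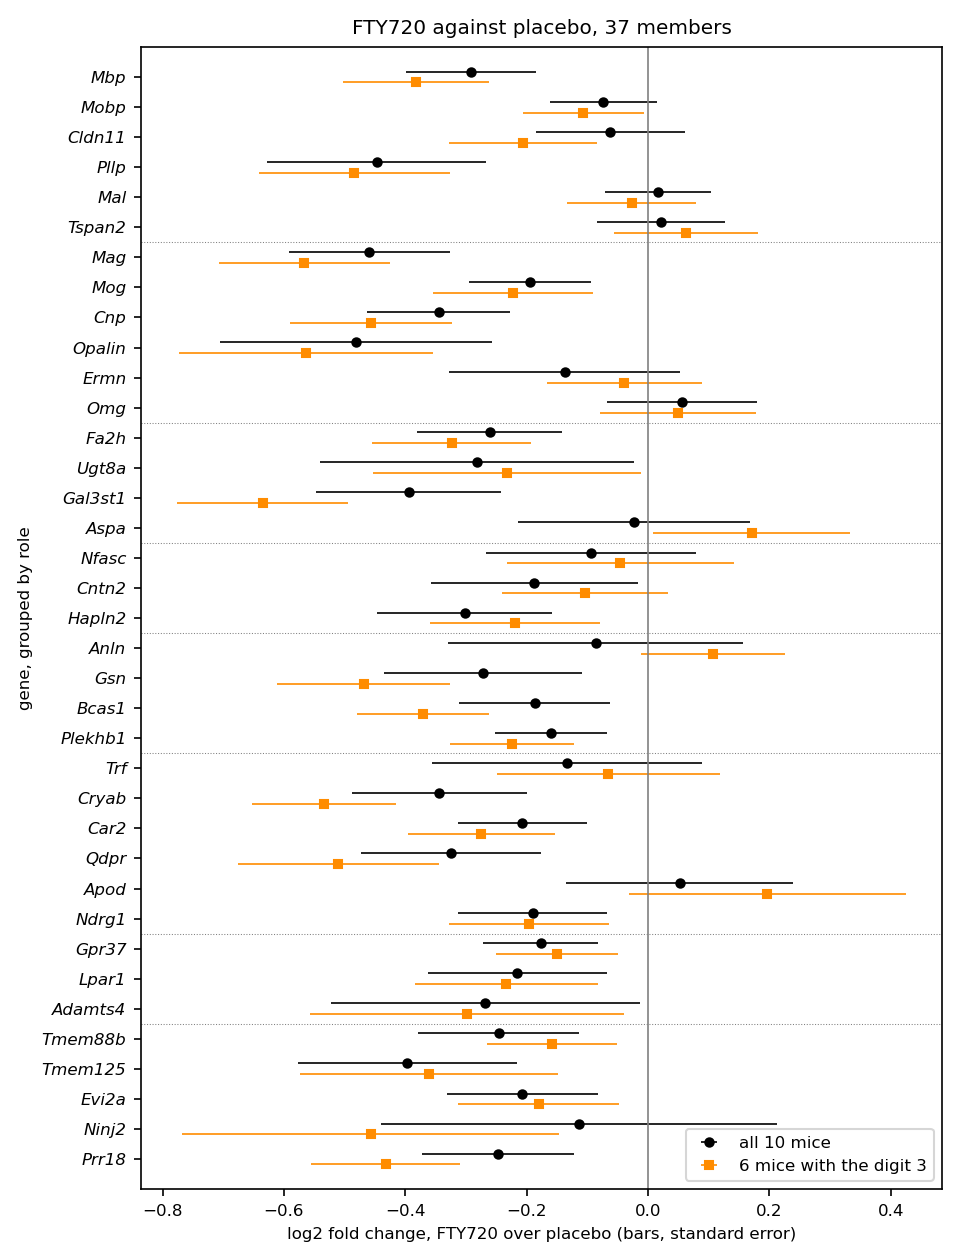
Log2 fold change of FTY720 over placebo for each of the 37 genes, grouped by role, with bars of 1 SE, in all 10 mice (black) and in the 6 digit-3 mice (orange). In all 10 mice 33 genes lie left of 0 and in the 6 mice 32 do.

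The digit 1 holds 3 FTY720 mice and a single placebo mouse, P1-623, so no test was run within it. P1-623 lay above all 3 FTY720 mice in 12 of the 37 genes (32.4%) and below all 3 in 4 (10.8%), beside 23.2% and 24.8% of the protein-coding genes. The 12 included Mbp (3089.8 CPM in P1-623 and 2367 to 3048 CPM with FTY720), Mag (211 and 135 to 194 CPM), Cnp (409.8 and 314 to 364 CPM), Pllp, Opalin, Gal3st1 and Qdpr. The 4 below were Mal, Tspan2, Ermn and Ugt8a. In a fit with treatment, digit and their interaction, 1 member, Bcas1, was past an unadjusted p of 0.05 for the interaction, with a term of -0.57 on the log2 scale (SE 0.22, unadjusted p = 0.025, adjusted p = 0.99994, edgeR quasi-likelihood test, Benjamini-Hochberg adjusted), beside 1.64% of the protein-coding genes past that p, so the share of members, 1 of 37, is near the background. Bcas1 was at 139.8 CPM in P1-623 and 138 to 184 CPM in the digit-1 FTY720 mice. The term rests on that single placebo mouse, whose level lies inside the FTY720 range, so no difference between the digits is read from it. Of the terms, 31 of the 37 were below 0, beside 60.1% of the protein-coding genes.

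Between the digits, with treatment as a covariate, 6 members were higher with the digit 3 and 4 lower at an adjusted p under 0.05 (edgeR quasi-likelihood test, Benjamini-Hochberg adjusted over 17665 genes). That is 27.0% of the members, beside 30.0% of the protein-coding genes, of which 13.8% were higher and 16.2% lower, so the share of members is near that of all genes. The 6 higher were Anln, Ugt8a, Ermn, Aspa, Cntn2 and Tmem88b, and the 4 lower were Opalin, Gsn, Pllp and Gal3st1. Of these calls, those of Anln, Ermn and Aspa held with each mouse left out, while Pllp was past the threshold under 3 of 19 alternatives and Gal3st1 under 10. The median over the 37 was 0.03, with 19 above 0 and 18 below it. In 5 genes (Anln, Ermn, Aspa, Cntn2 and Tmem88b) every digit-3 mouse lay above every digit-1 mouse, and in 0 genes below, beside 7.66% and 7.31% of the protein-coding genes. The summed cerebellar markers moved with the digit as given above, and their part in these differences was not tested.

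Anln, a septin-binding scaffold of the sheath, was at 42.04, 32.3, 38.6 and 34.98 CPM in F1-622, F1-624, F1-918 and P1-623 and at 56.97 to 70.7 CPM (median 64.01) in the 6 digit-3 mice, a log2 difference of 0.82 (SE 0.10, adjusted p = 0.000229). Ermn was at 71.9, 66.7, 70.9 and 62.8 CPM in the same mice and at 85.05 to 113 CPM (median 105) in the 6 digit-3 mice, a log2 difference of 0.60 (SE 0.10, adjusted p = 0.00127). Ugt8a was at 57.6, 50.3, 59.3 and 44.5 CPM in the same mice and at 52.3 to 109 CPM (median 95.8) in the 6 digit-3 mice, a log2 difference of 0.73 (SE 0.18, adjusted p = 0.0115). For Anln and Ermn the digits were apart, and for Ugt8a F3-908 lay among the digit-1 mice while the other 5 lay above them. Opalin was at 27.3, 26.5, 19.4 and 40.03 CPM in the same mice and at 16.2 to 34.04 CPM (median 18.5) in the 6 digit-3 mice, a log2 difference of -0.57 (SE 0.16, adjusted p = 0.0176). Gsn was at 82.6, 68.6, 84.5 and 92.2 CPM in the same mice and at 46.03 to 83.8 CPM (median 64.5) in the 6 digit-3 mice, a log2 difference of -0.42 (SE 0.11, adjusted p = 0.0173). Ninj2, an adhesion molecule, was at 3.54, 1.53, 2.76 and 2.75 CPM in the same mice and at 1.13 to 2.33 CPM (median 1.74) in the 6 digit-3 mice, a log2 difference of -0.70 (SE 0.27, adjusted p = 0.072), and was not past the threshold. For these 3 the digits overlapped, and Opalin and Gsn were higher in the placebo than in the FTY720 mice within each digit. The two-sided exact permutation p over the splits of the 10 mice was 0.00476, the smallest possible, for Anln and Ermn, 0.0286 for Ugt8a, 0.157 for Opalin, 0.081 for Gsn and 0.0762 for Ninj2.

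Mbp, Mag, Cnp and Cryab, lower with FTY720, differed by -0.09, -0.15, -0.19 and -0.07 between the digits, none of them past the threshold, with adjusted p-values of 0.167 to 0.739 (edgeR). Of the nodal and paranodal genes Cntn2 was higher with the digit 3 by 0.46 (adjusted p = 0.0117), while Nfasc and Hapln2 had 0.34 and 0.31 and were not past the threshold (0.102 and 0.0649). The lipid enzymes went both ways, with Ugt8a and Aspa (0.51, 0.0127) higher, Gal3st1 (-0.36, 0.0364) lower and Fa2h at 0.14 (0.381).

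**Figure D5:**
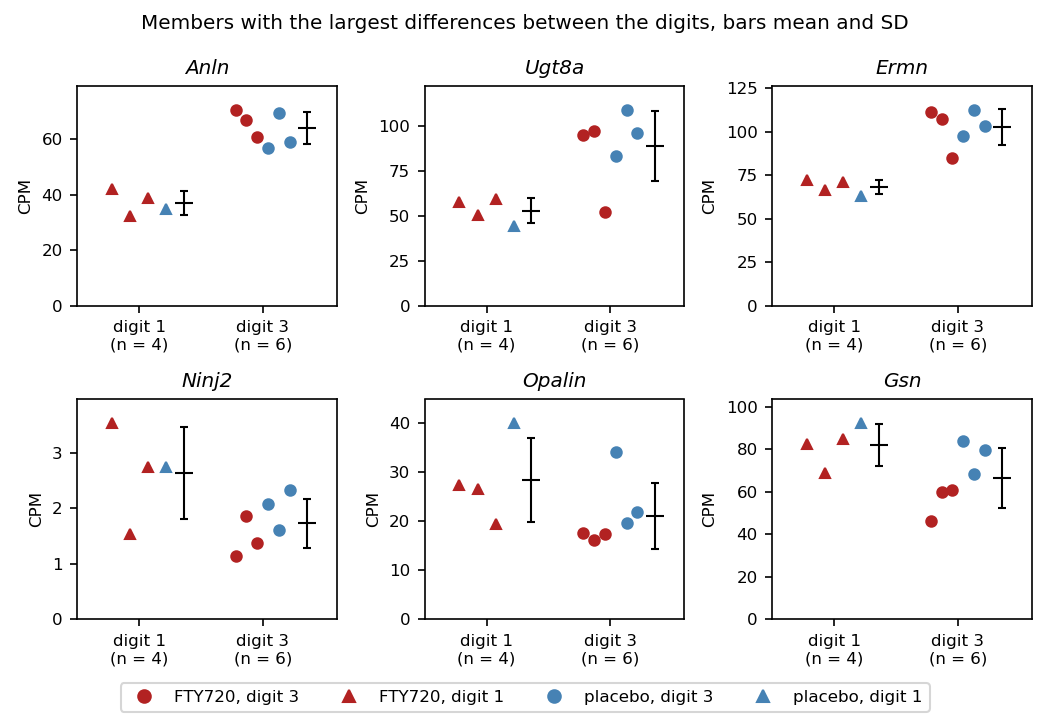
CPM of the 3 genes with the largest difference between the digits in each direction, 1 point per mouse (red FTY720, blue placebo), with the mean and SD of the 4 digit-1 mice and the 6 with the digit 3. Anln and Ermn do not overlap between the digits, and Ninj2, Opalin and Gsn do.

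A second list of 55 other myelin and oligodendrocyte genes had 12 lower and 0 higher at an unadjusted p under 0.05 with FTY720. This stands beside 1.47% lower and 1.14% higher over the protein-coding genes in the same fit. The median of the list was -0.19, with 46 below 0. With the digit as a covariate 14.1% of the protein-coding genes were past that p in either direction, and the list was not counted in that fit. Among the 12 lower genes Gjb1, a gap junction protein of oligodendrocytes, was at 17.03, 25.8, 20.2 and 25.6 CPM in P1-623, P3-612, P3-904 and P3-907 and at 12.2 to 16.7 CPM with FTY720 (log2 fold change -0.65, SE 0.15). Every placebo mouse lay above every FTY720 mouse. Also lower were Ppp1r14a (-0.71), Nkx6-2 (-0.52), Josd2 (-0.46), Serpinb1a (-0.46), Cd82 (-0.40), Tmem63a (-0.35), Phldb1 (-0.34), Tspan15 (-0.32), Itgb4 (-0.30) and Ttyh2 (-0.29). Nkx6-2 encodes a transcription factor of oligodendrocyte maturation. S1pr5, the sphingosine-1-phosphate receptor of oligodendrocytes, is named here outside the rule and after its values were seen. It had a log2 fold change of -0.17 (SE 0.13) and was not past the threshold. In the digit-3 mice the list had 16 lower and 0 higher, with a median of -0.18, beside 5.0% lower and 2.96% higher over the protein-coding genes.

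The other genes of sphingolipid and galactolipid metabolism were not past the threshold in the first comparison, 0 of 29 in either direction with a median of 0.04. In the digit-3 mice, 3 of them were higher and 1 lower. Over the protein-coding genes 1.47% were lower and 1.14% higher in the first comparison, and 5.0% lower and 2.96% higher in the digit-3 mice. Neither this list nor the 2 that follow were tested as a set against these shares. Of 20 other genes of the node, the paranode and the axonal membrane under the sheath, 1 was lower, Sptbn4, a spectrin of the node (-0.31, SE 0.13), and 0 were higher, with a median of 0.00. Among digit-3 mice 3 of the 20 were lower and 0 higher, Sptbn4 (-0.36), Bcan (-0.33) and Cadm4 (-0.53), with a median of 0.06. Among 11 progenitor and lineage genes, 2 were lower and 0 higher in the first comparison, with a median of -0.22 and 7 below 0. The 2 were Olig1 (-0.43, SE 0.17) and Olig2 (-0.56, SE 0.12), transcription factors of the whole lineage. Pdgfra, the receptor that marks progenitors, had 0.05 (SE 0.12). Of the 11, 3 were lower and 0 higher in the digit-3 mice, Olig1 (-0.59), Olig2 (-0.62) and C1ql1 (-0.65), with a median of -0.40.

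Markers of other cells were measured beside these results, and their part in them was not tested. The share of protein-coding genes past the threshold was 1.47% lower and 1.14% higher in the first comparison. In the digit-3 mice it was 5.0% lower and 2.96% higher, and no marker list was tested as a set against these shares. Of 7 endothelial genes 3 were higher with FTY720, Pecam1 (0.43), Ly6c1 (0.46) and Slco1a4 (0.61), 0 were lower, and their summed level was 169 to 267 CPM with FTY720 and 152 to 173 CPM with placebo. In the digit-3 mice, 4 of them were higher, with sums of 211 to 267 and 166 to 173 CPM. Neuronal, astrocyte and microglial lists had 0 of 8, 0 of 7 and 0 of 7 past the threshold in the first comparison, with summed levels of 5248 to 6086 CPM with FTY720 and 5214 to 5810.0 CPM with placebo for neurons, 4338 to 5188 CPM with FTY720 and 4332 to 5038 CPM with placebo for astrocytes and 230.0 to 399.7 CPM with FTY720 and 272 to 369.8 CPM with placebo for microglia. In the digit-3 mice, 3 neuronal and 2 microglial genes were lower, and the microglial sums were apart, at 230.0 to 264 CPM with FTY720 and 272 to 315 CPM with placebo. The cerebellar and forebrain sums were apart there as well, at 1476 to 1504 CPM with FTY720 and 1382 to 1433 CPM with placebo for the cerebellar genes and at 279 to 314.5 and 315.3 to 354 CPM for 8 forebrain genes. Of the single protein-coding genes, 6.8% were apart there with FTY720 higher and 6.9% with FTY720 lower. Sums that are apart are therefore not read as results about these cells or regions. Of 6 genes of meninges and fibroblasts 1 was lower (Slc6a13, -0.35), and of 5 choroid plexus genes 0 were past it, with sums of 67.9 to 95.99 CPM with FTY720 and 71.2 to 93.03 CPM with placebo and 496 to 712 CPM with FTY720 and 431 to 776 CPM with placebo. Of 6 Schwann cell genes 0 of the 4 tested were past it, Pmp2 was at 0 in all mice, and the sum was 64.2 to 111 CPM with FTY720 and 58.9 to 83.4 CPM with placebo.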

How the data were processed

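RNA-seq of brain tissue from 10 mice was used, 6 with FTY720 and 4 with placebo, grouped by the treatment in the labels. The submitters' processing notes name CASAVA 1.8, fastp, HISAT2 2.0.5 on GRCm38, featureCounts 1.5.0-p3 and DESeq2 1.20.0, and the study's methods name the NEBNext Ultra kit. The annotation release and the strand setting are not given in the sources used here. The authors deposited raw counts per gene, and FPKM values that the authors scaled by gene length and library total.

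The members and gene lists were chosen with earlier results of these data known. Genes passing filterByExpr were normalized by TMM and tested on all mice, on the digit-3 mice, between the digits (treatment as covariate) and for treatment by digit, with the quasi-likelihood test of edgeR 4.0.16 (R 4.3.3). Following the study's criterion, a treatment difference was called at an unadjusted p under 0.05, and Benjamini-Hochberg adjusted p-values over all genes stand beside it. Between the digits the adjusted p was used. CPM are counts scaled to the TMM-adjusted library size. For single members an exact permutation test (two-sided, difference of means in log2 CPM with a prior count of 2) ran over all 210 ways to split the mice 6 to 4. Nothing says that the libraries are technical repeats, and the chi-square per degree of freedom over the 5000 genes with the most counts was 16.1 or more in all 45 pairs. Fold changes are log2 ratios. Counting error is not small for members with few counts, such as Ninj2 at 19 to 50 counts per mouse.

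Full values were given for the members past the unadjusted p in the first comparison, for members whose groups did not overlap there and for the 3 with the largest difference in each direction between the digits; genes of the other myelin, lipid and junction lists past that p were named after their counts. The other genes of the digit-3 mice were named because they passed there. Alternatives were RLE and upper-quartile scaling, no filter, the Wald test of DESeq2 1.42.0, limma 3.58.1 on log2(FPKM + 0.1) and log2(FPKM + 1), other covariates and each mouse left out. The scripts were tested on simulated data. Of the members, 12 share exon bases with another gene in GENCODE M21, and without the strand setting their counts are uncertain. Protein sequences were not used here, and some genes of the lists are counted but not reported here by name.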

Additional observations from a re-analysis of the deposited data

Results flagged for a closer look

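In 3 of 74 groups of 4 or 6 mice (37 genes, each treatment), a single mouse stood apart from the rest of its group by Dixon's criterion, which chance alone would give in about 1 of 20 groups. Gal3st1 was at 15.8 CPM in the placebo mouse P3-904, with the next placebo mouse at 19.02 CPM. Tmem88b was at 84.7 CPM in the placebo mouse P1-623, with the next at 107 CPM. Tmem125 was at 18.001 CPM in the placebo mouse P3-612, with the next at 11.5 CPM. The interaction of treatment and digit for Bcas1 was -0.57 on the log2 scale by the quasi-likelihood test of edgeR. It did not pass adjustment (adjusted p = 0.99994, edgeR), and as the digit-1 placebo arm is the single mouse P1-623, whose level lies inside the digit-1 FTY720 range, no difference between the digits is read from it.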

How the results depend on the processing

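No named member past its threshold changed direction under any alternative run. In all mice, 9 members were called, 6 to 10 under the other scalings, filters, tests and covariates, and 3 to 10 with 1 mouse left out: 3 without P3-612, 4 without P3-907, 5 without F3-609, F3-612 or F3-908, and 10 without P1-623 or P3-904. Mag (log2 -0.53 to -0.40) and Cnp (-0.41 to -0.28) were called under all 19 alternatives, Mbp and Gal3st1 under 16, Pllp under 14, Cryab under 12, Qdpr under 8, Tmem125 under 5 and Fa2h under 3. With the digit as a covariate 10 members were called, while the protein-coding genes called went from 386 to 2083. In the digit-3 mice the count of 12 ran from 10 to 17 under the alternatives, which included DESeq2 with 14. Between the digits the count of 10 became 6 without treatment as a covariate and 5 to 12 with 1 mouse left out, 5 of these without P1-623. The median over the members went from -0.21 to between -0.27 and -0.17 in all mice. It was -0.30 in the digit-3 mice without F3-612, and -0.04 between the digits without F1-624. The treatment by digit count stayed at 1 with RLE scaling and with DESeq2. The cause of these shifts was not tested. Without P1-623 the digit-1 mice are all FTY720 mice. In all mice DESeq2 called 9 members. With 1 mouse left out, Mbp was not called without P3-612 or P3-907, Gal3st1 was not called without P3-612, P1-623 or P3-907, Pllp was not called without F1-622, F3-609, F3-612, F3-908 or P1-623, Cryab was not called without F1-624, F3-609, F3-612, F3-908, P3-612 or P3-907, Qdpr was not called without F1-624, F3-609, F3-612, F3-908, P3-612, P1-623 or P3-907, Fa2h was not called without F1-622, F1-624, F1-918, F3-612, F3-908, P3-612, P3-904 or P3-907 and Tmem125 was not called without F1-622, F1-624, F1-918, F3-609, F3-612, F3-908, P3-612 or P3-907. Among the digit-3 mice the calls lost were Opalin without F3-609, F3-612, F3-908 or P3-612, Fa2h without F3-612, F3-908 or P3-907 and Pllp without P3-907. Between the digits they were Cntn2, Tmem88b, Ugt8a and Opalin without P1-623, Gsn without F1-918 or F3-609, Gal3st1 without F1-622, F1-624, F1-918, F3-609, F3-612, F3-908 or P3-904 and Pllp without F1-624, F1-918, F3-609, F3-612, F3-908, P1-623, P3-904 or P3-907. Depth limits Ninj2 most, at 1.13 to 3.54 CPM with FTY720. No paired analysis was possible because the mouse numbers of the groups match in a single pair, F3-612 and P3-612.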

Other observations

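Of the 55 other myelin and oligodendrocyte genes, 10 were higher and 4 lower with the digit 3 at an adjusted p under 0.05 (edgeR with Benjamini-Hochberg adjustment), with a median of 0.05. Over the protein-coding genes 13.8% were higher and 16.2% lower, 30.0% in all, so the list, taken over both directions, is not above the background. The genes that follow were chosen after their values were seen. Gjc3, another gap junction protein of oligodendrocytes, was at 47.9 to 60.9 CPM in the digit-1 mice and 77.9 to 104 CPM in those with the digit 3, a log2 difference of 0.76 (adjusted p = 0.000688). Pmp22, a membrane protein of peripheral and to a lesser degree central myelin, had 0.53 (adjusted p = 0.0075), with its highest level, 49.1 CPM, in F3-612. Gjb1, which was lower with FTY720, had 0.29 (adjusted p = 0.11). Of 11 progenitor and lineage genes 2 were higher and 3 lower with the digit 3. The sums over the neuronal list were 5214 to 5810.0 CPM in the digit-3 and 5489.8 to 6086 CPM in the digit-1 mice, and those over the forebrain list 279 to 354 and 442 to 475 CPM.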
